A study of Rattus norvegicus with 2 samples.

Results

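Chemokines, interleukins, members of the TNF family, their receptors and the NF-kappa-B factors downstream of them were examined in A7r5 cells, a rat line of vascular smooth muscle that was derived from the embryonic aorta. Probe sets were taken when the single rat gene symbol in the array's annotation began with Ccl, Ccr, Cxcl, Cxcr or Il and a digit, or with Tnf or Nfkb, or was Rel, Rela, Relb, Icam1 or Vcam1. This gave 120 probe sets for 99 genes, out of 12783 single-gene probe sets for 10411 genes. Of the 99 genes, 84 were read by 1 probe set and 15 by several.

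The study set a pool of A7r5 cells infected with an adenovirus carrying human GLUT1 cDNA, the facilitative glucose transporter, beside a pool infected with the empty virus. Both pools were infected for 72 hours at a multiplicity of infection of 10 and grown in 5.5 mM glucose, so the adenovirus itself is common to both. Each pool joined RNA from 3 separate days and was read on 1 array, which leaves 1 sample per group. There is thus no replicate check, and no p-value or error between samples is given. Precision is limited by having 2 arrays.

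Chemokines are small secreted proteins that draw leukocytes along a gradient, and they act through G protein-coupled receptors. Interleukins and TNF family ligands bind cell surface receptors that signal through JAK kinases and STAT factors or through TRAF adaptors and the IKK kinases. The IKK kinases release NF-kappa-B dimers from their inhibitors, and the dimers induce many chemokine, cytokine and adhesion genes. In the injured or atherosclerotic vessel wall, smooth muscle cells are known to take on part of this programme.

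Promoters with a match to the kappa-B motif, the DNA element bound by NF-kappa-B, are shown first, for readable and dim genes of the set. Binding was not measured. The table of RefSeq promoters (GRCr8) held 76 of the 99 genes, and 16 of these had a match to the motif on either strand in the 250 bases before the start site. By promoter, 17 of 78 in the set (21.8%) and 2964 of 33469 in the whole table (8.86%) had a match. A match describes letters in this window only. Capitals mark the motif, and positions count back from the start site at the first base of the match. The first 3 belong to genes whose probe set was above the median of both arrays, and the last 2 to genes whose probe set was below the lower quartile of all values. Il6 (chr4:5894576-5894825, minus strand) has the match at -68, Nfkbia (chr6:78597073-78597322, minus strand) at -31 and Nfkb2 (chr1:255108124-255108373, plus strand) at -20. Cxcl1 (chr14:17479322-17479571, minus strand) has overlapping matches at -84 and -83, and Vcam1 (chr2:206742784-206743033, minus strand) has 1 at -93.
Il6: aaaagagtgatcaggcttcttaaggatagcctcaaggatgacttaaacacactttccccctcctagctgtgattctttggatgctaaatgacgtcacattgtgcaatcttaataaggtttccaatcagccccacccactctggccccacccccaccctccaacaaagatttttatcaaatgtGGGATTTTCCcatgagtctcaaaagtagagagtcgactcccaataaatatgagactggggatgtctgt
Nfkbia: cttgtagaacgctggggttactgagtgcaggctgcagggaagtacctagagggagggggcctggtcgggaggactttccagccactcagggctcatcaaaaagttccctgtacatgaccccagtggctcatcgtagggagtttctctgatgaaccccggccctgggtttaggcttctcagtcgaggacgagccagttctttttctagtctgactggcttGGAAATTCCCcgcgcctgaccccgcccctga
Nfkb2: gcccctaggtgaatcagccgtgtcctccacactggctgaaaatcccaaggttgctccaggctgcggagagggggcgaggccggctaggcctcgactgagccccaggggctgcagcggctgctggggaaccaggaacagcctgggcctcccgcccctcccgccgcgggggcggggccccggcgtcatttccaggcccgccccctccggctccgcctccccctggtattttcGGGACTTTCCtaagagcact
Cxcl1: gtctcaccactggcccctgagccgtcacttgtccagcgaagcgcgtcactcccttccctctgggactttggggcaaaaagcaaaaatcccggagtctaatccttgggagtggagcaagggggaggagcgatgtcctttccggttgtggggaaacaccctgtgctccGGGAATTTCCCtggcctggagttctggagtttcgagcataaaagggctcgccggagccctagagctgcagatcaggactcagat
Vcam1: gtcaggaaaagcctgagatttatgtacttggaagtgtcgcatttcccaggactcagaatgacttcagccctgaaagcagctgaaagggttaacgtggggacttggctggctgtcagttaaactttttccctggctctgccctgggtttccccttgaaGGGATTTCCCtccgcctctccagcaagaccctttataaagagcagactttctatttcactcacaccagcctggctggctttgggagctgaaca
A match was present in 3 of 13 genes with a readable probe set and in 13 of 63 of the other genes.

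Most of the set was dim. A probe set was counted as detectable when its deposited intensity lay above the array's median, 508 on both arrays, on both of them. This held for 19 of the 120 probe sets (15.8%), from 18 genes, against 52.7% of all single-gene probe sets. Another 2 probe sets, of Cxcl16 and Il24, passed on the empty-virus array only, and none passed on the GLUT1 array only. The remaining 99 were below the median on both. Intensities at or below 175, the lower quartile of all values, were treated as a floor at which no ratio can be formed. At this floor on both arrays were 45 of the 120, and 10 more were at it on 1 array. A dim value carries no detection call here, so it does not show that a gene is silent.

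Readable probe sets were unevenly spread over the roles. All 4 NF-kappa-B subunits found by the rule and both inhibitors were detectable. So were 4 of 20 interleukin receptor genes, 2 of 21 interleukins, 2 of 9 TNF receptors, 1 of 5 TNF ligands, 2 of 4 TNF-induced genes and 1 of 2 adhesion genes. None of 21 chemokine ligands and none of 9 chemokine receptors was detectable on both arrays.

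**Figure D1:**
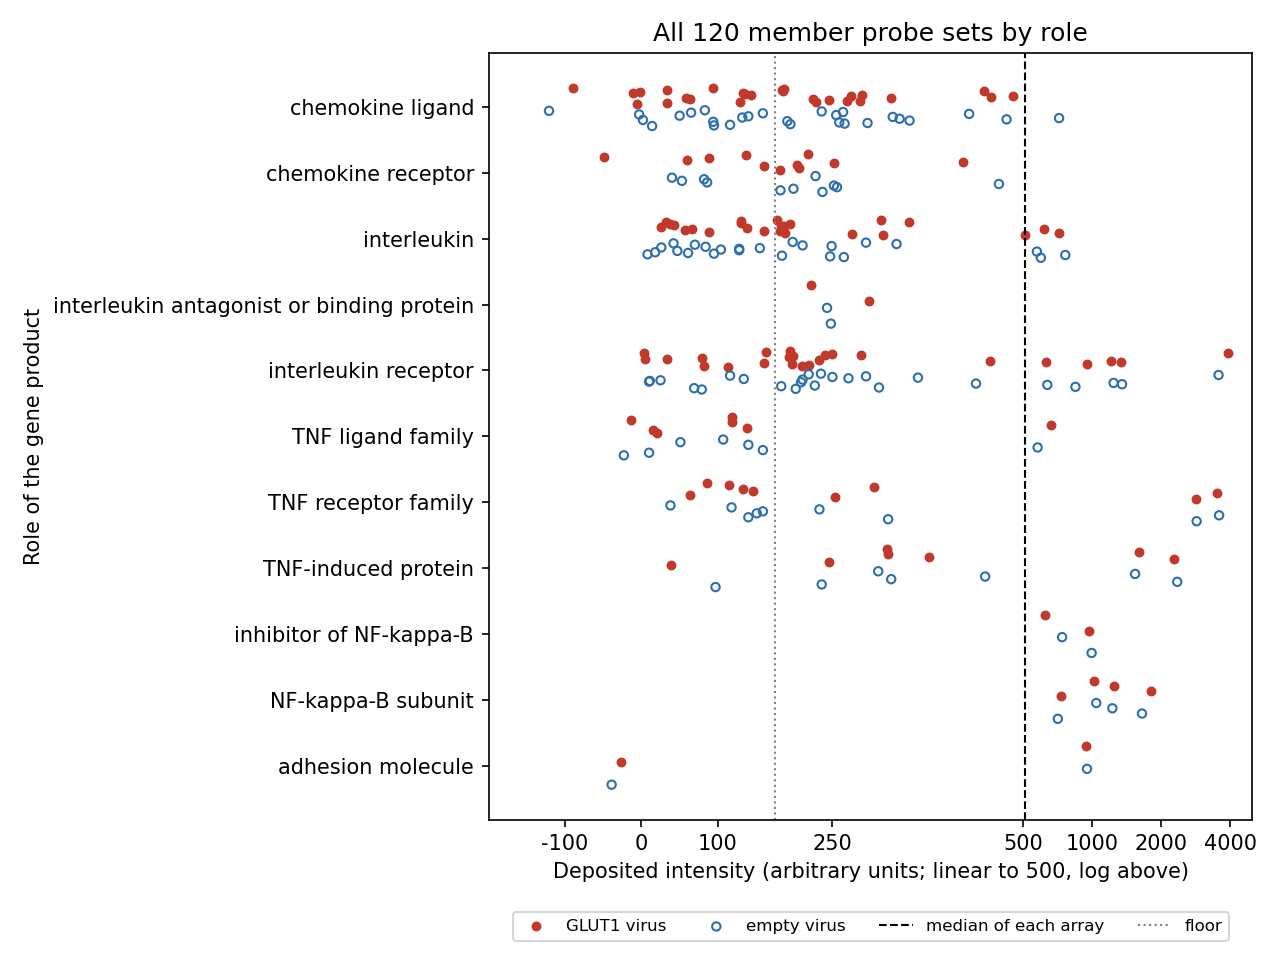
Deposited intensity (x axis, arbitrary units, linear at the dim end and logarithmic above) of the 120 probe sets, grouped by the role of the gene product (y axis), with filled points for the GLUT1 virus and open points for the empty virus, 1 array each. The dashed line is the median of each array, 508, and the dotted line the floor, 175; chemokine ligands and receptors lie left of the dashed line except for 1 open point of the empty virus, Cxcl16.

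None of the 19 detectable probe sets differed between the arrays by 2-fold, where 1 of 6733 detectable single-gene probe sets did (0.0149%). None reached a log2 ratio of 0.32 in either direction, a smaller size also used here, which 1.47% of all detectable probe sets reached upwards and 1.32% downwards (2.79% together). A count of 0 of 19 is near that background and does not set these genes apart. Their log2 ratios, GLUT1 over empty virus, ran from -0.25 to 0.19 with a median of -0.01, beside a median of 0.00 over all detectable probe sets. The SD was 0.10 in the set and 0.14 in all. Of the 19, 8 were above 0 and 11 below. The ratio of each was also set beside its local spread, the scaled median absolute deviation of the log2 ratios of the detectable probe sets nearest in brightness, which mixes array noise with real differences.

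**Figure D2:**
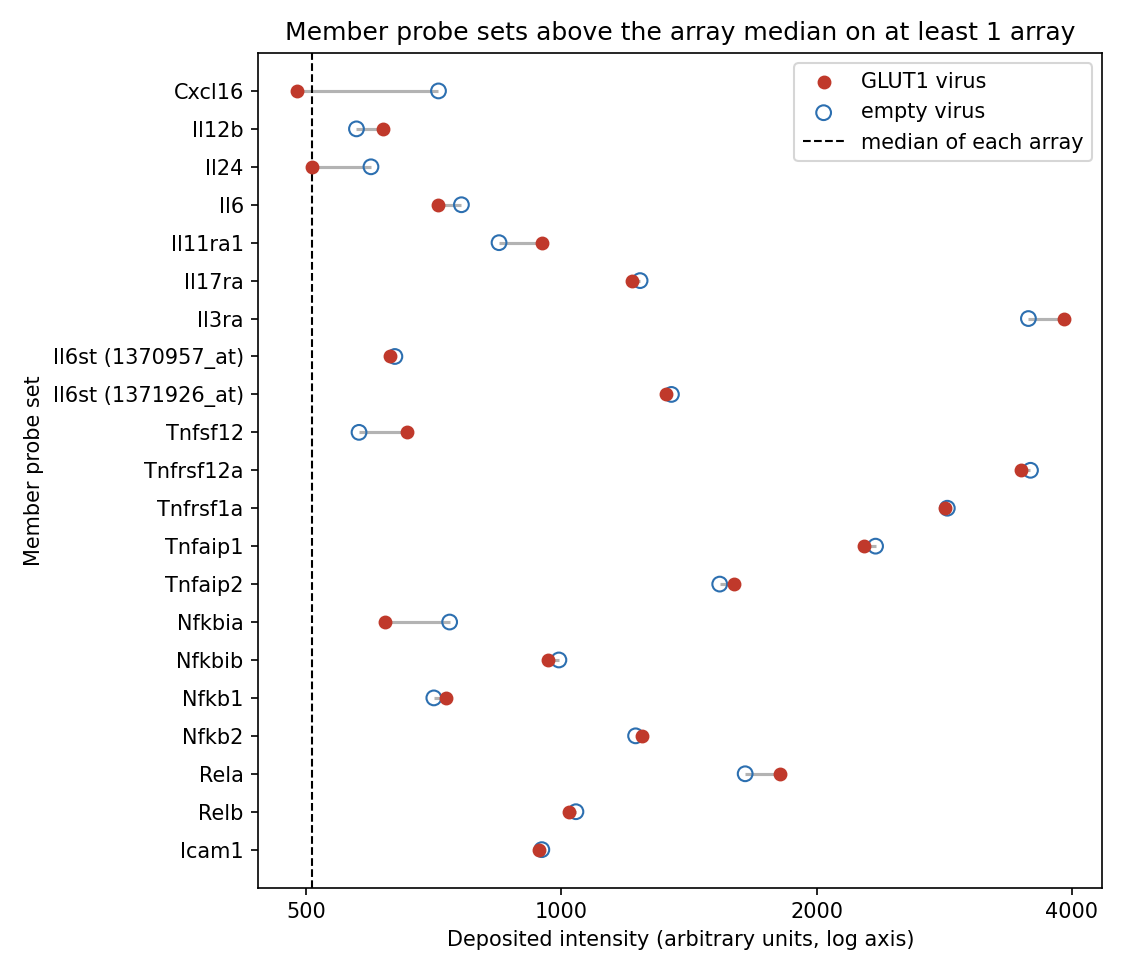
Deposited intensity (x axis, arbitrary units, log axis) of the 21 probe sets above the median of at least 1 array (y axis), filled for the GLUT1 virus and open for the empty virus, 1 array each. The dashed line is the array median of 508; most pairs nearly coincide, and the widest gap is that of Cxcl16, at 487 on the GLUT1 array and 716 on the empty-virus array.

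Among the chemokine ligands above the floor on both arrays, Cxcl16 had the largest difference. Cxcl16 encodes a chemokine made as a transmembrane protein, which also acts as a scavenger receptor for oxidised lipoprotein. It was read at 487 on the GLUT1 array and 716 on the empty-virus array, 1.47-fold lower with GLUT1, a log2 ratio of -0.55. This was 3.36 times its local spread of 0.16, and 3.12 times the spread of 0.18 taken over all probe sets above the floor. It was the only member read above the median on the empty-virus array that was below it with GLUT1, apart from Il24, which lay exactly at 508 on the GLUT1 array. One probe set reads Cxcl16, so no second reading was available.

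Among the inflammatory chemokines, Ccl2, Cxcl1 and Cxcl2 were under the floor on both arrays, while others such as Ccl3 and Ccl4 were above it. Ccl2, which draws monocytes, was read at -6 with GLUT1 and 14 with the empty virus. Cxcl1, a neutrophil attractant whose promoter is shown above, was read at 135 with GLUT1 and 140 with the empty virus. Cxcl2, of the same function, was read at 34 with GLUT1 and 95 with the empty virus. No ratio can be formed for these 3.

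A second group lay between the floor and the median. Cxcl10, an interferon-induced chemokine with kappa-B matches in its promoter, was read at 448 with GLUT1 and 429 with the empty virus, a log2 ratio of 0.06. Ccl20 was read at 286 with GLUT1 and 266 with the empty virus, a ratio of 0.11 on the log2 scale. Ccl5 was read at 245 with GLUT1 and 259 with the empty virus, at -0.08. All 3 were near equal on the arrays.

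Cxcl12, which retains progenitor cells through Cxcr4, was read by 3 probe sets. They gave 229, 186 and -2 with GLUT1, against 195, 236 and -3 with the empty virus. The log2 ratios of the first and second were 0.23 and -0.34, opposite in sign, so no direction can be given for Cxcl12. Cxcl3 was read by 4 probe sets, at 58, 458, 185 and 33 with GLUT1 and at 2, 478, 159 and 65 with the empty virus. The second of these, the only one well above the floor, is marked _x_at, a suffix the manufacturer gives to probes that may also bind other sequences.

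Chemokine receptors, which are mainly leukocyte genes, were all below the median. Cxcr4 had 3 probe sets, read at 88, -49 and 218 with GLUT1 and at 53, 82 and 228 with the empty virus, with a ratio only for the last, at -0.06 on the log2 scale. That probe set also carries the _x_at suffix. Ccr2, the receptor of Ccl2, was read at 137 with GLUT1 and 40 with the empty virus, both under the floor. Cxcr5, named after its values were seen, came nearest to the median, at 421 with GLUT1 and 468 with the empty virus.

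Of the interleukins, Il6 and Il12b were detectable. Il6 encodes the cytokine that drives the acute phase response and is a product of activated smooth muscle. It was read at 716 with GLUT1 and 762 with the empty virus, a log2 ratio of -0.09 and 0.547 times its local spread. Il12b, the subunit shared by interleukins 12 and 23, was read at 615 with GLUT1 and 573 with the empty virus, a log2 ratio of 0.10. Il24, of the interleukin 10 family, was read at 508 with GLUT1 and 596 with the empty virus, a log2 ratio of -0.23. Its size was 1.53 times the local spread among detectable probe sets and 1.11 times that among all probe sets above the floor. All 3 lay within the size of 0.32.

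Interleukins of the IL-1 family were dim. Il1b was read at 178 with GLUT1 and 198 with the empty virus, close to the floor, a log2 ratio of -0.15. The 2 probe sets of Il1a gave 276 and 186 with GLUT1 and 247 and 155 with the empty virus. The first had a log2 ratio of 0.16. Il1rn, the receptor antagonist that blocks IL-1, was read at 222 with GLUT1 and 243 with the empty virus, a log2 ratio of -0.13.

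Other members of that family were likewise dim. Il18 was read at 25 with GLUT1 and 104 with the empty virus, both under the floor. Il33, an alarmin released from damaged cells, was read at 37 and 313 with GLUT1 and at 84 and 294 with the empty virus, and its brighter probe set had a log2 ratio of 0.09. Outside the family, Il15, a growth factor of T and natural killer cells, was read at 316 with GLUT1 and 265 with the empty virus, a log2 ratio of 0.26.

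The interleukin receptors supplied 5 of the 19 detectable probe sets. Il6st encodes gp130, the signalling chain shared by the receptors of IL-6, IL-11, LIF and oncostatin M. Its 3 probe sets gave 627, 1328 and 456 with GLUT1, against 636, 1348 and 438 with the empty virus. Their log2 ratios were -0.02, -0.02 and 0.06, the smallest range among the 6 genes with at least 2 readings above the floor on both arrays.

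The alpha chains that pair with gp130 differed from each other in being readable or not. Il11ra1, the alpha chain for IL-11, was read at 948 with GLUT1 and 844 with the empty virus, a log2 ratio of 0.17 and 0.995 times its local spread. Il6r, the alpha chain for IL-6, was read at 5 with GLUT1 and 11 with the empty virus, so no ratio can be formed. The ligand Il11 was likewise under the floor, at 57 with GLUT1 and 18 with the empty virus.

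Il3ra, the alpha chain of the IL-3 receptor, was read at 3917 with GLUT1 and 3555 with the empty virus. Its log2 ratio of 0.14 was 1.54 times the local spread of 0.091, the largest multiple among the 19. Its ligand Il3 was near the floor, at 188 with GLUT1 and 184 with the empty virus. Il17ra, a chain shared by receptors of the IL-17 family, was read at 1211 with GLUT1 and 1238 with the empty virus, a log2 ratio of -0.03. Il1r1, the signalling receptor of IL-1, gave 210 and 161 with GLUT1 and 202 and 227 with the empty virus. Its first probe set had a log2 ratio of 0.06, and its second was at least 1.30-fold lower with GLUT1, where it was under the floor. Il4r was read at 113 with GLUT1 and 79 with the empty virus, both under the floor.

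In the TNF family a ligand and its own receptor were both detectable. Tnfsf12 encodes TWEAK, and Tnfrsf12a encodes Fn14, its receptor, which is known to be induced by growth factors in smooth muscle. Tnfsf12 was read at 658 with GLUT1 and 577 with the empty virus, a log2 ratio of 0.19 and 1.11 times its local spread, the highest ratio of the 19. Tnfrsf12a was read at 3486 with GLUT1 and 3575 with the empty virus, a log2 ratio of -0.04. Tnfrsf1a, the widely expressed TNF receptor with a death domain, was read at 2838 with GLUT1 and 2852 with the empty virus, a log2 ratio of -0.01.

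TNF itself was under the floor. The 2 probe sets of Tnf gave -14 and 118 with GLUT1 and 51 and 107 with the empty virus. Tnfrsf1b, the other TNF receptor, was read at 86 with GLUT1 and 38 with the empty virus. Tnfsf11, which encodes the osteoclast factor RANKL, gave 21 and 15 with GLUT1 and -23 and 10 with the empty virus. Tnfrsf11b, the decoy receptor osteoprotegerin that binds it, was read at 63 with GLUT1 and 140 with the empty virus. No ratio can be formed for any of these 4 genes.

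Of the genes named for their induction by TNF, Tnfaip1, an adaptor of a cullin ubiquitin ligase, was read at 2275 with GLUT1 and 2347 with the empty virus, a log2 ratio of -0.04. Tnfaip2 had 1 detectable probe set, at 1597 with GLUT1 and 1537 with the empty virus, a log2 ratio of 0.06. Its other probe sets were below the median and had log2 ratios of 0.21 and -0.48, so the 3 readings of Tnfaip2 do not share a sign. Tnfaip6, a hyaluronan-binding protein, gave 39 and 245 with GLUT1 and 97 and 236 with the empty virus, and the second had a log2 ratio of 0.06.

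The NF-kappa-B factors were readable throughout and close to equal. Rela, the subunit with the main transactivation domain, was read at 1812 with GLUT1 and 1647 with the empty virus, a log2 ratio of 0.14 and 1.19 times its local spread. Nfkb1 was read at 731 with GLUT1 and 707 with the empty virus, a log2 ratio of 0.05. Nfkb2, of the alternative pathway, was read at 1245 with GLUT1 and 1223 with the empty virus, a log2 ratio of 0.03. Its partner Relb was read at 1020 with GLUT1 and 1040 with the empty virus, a log2 ratio of -0.03.

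Both inhibitors were lower with GLUT1, by log2 ratios within 0.32. Nfkbia encodes the inhibitor that holds Rela dimers in the cytoplasm and is itself known to be induced by NF-kappa-B. It was read at 620 with GLUT1 and 738 with the empty virus, a log2 ratio of -0.25, the lowest of the 19 and 1.43 times its local spread. Nfkbib was read at 963 with GLUT1 and 993 with the empty virus, a log2 ratio of -0.04 and 0.28 times its local spread.

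The adhesion genes stood at opposite ends of readability. Icam1, which binds leukocyte integrins, was read at 940 with GLUT1 and 948 with the empty virus, a log2 ratio of -0.01. Vcam1, which binds monocytes and lymphocytes, was read at -27 with GLUT1 and -39 with the empty virus, so no ratio can be formed.

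**Figure D3:**
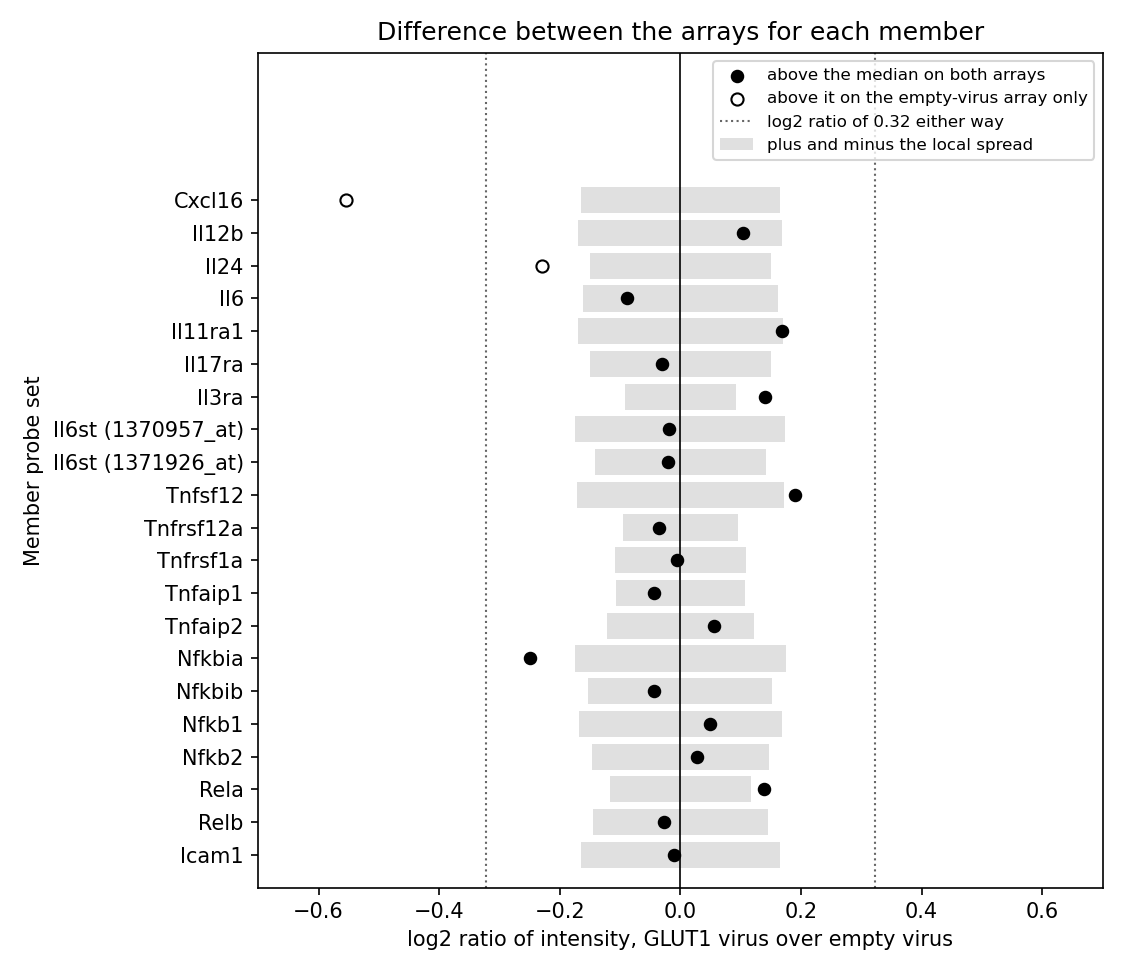
log2 ratio of intensity, GLUT1 over empty virus (x axis), for the same 21 probe sets (y axis), with grey bars for plus and minus the local spread and dotted lines at a log2 ratio of 0.32 either way. Filled points passed the median on both arrays and all lie between -0.25 and 0.19; the open points of Cxcl16 at -0.55 and Il24 at -0.23 passed it on the empty-virus array only.

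Among probe sets of the set that were not above the median on both arrays, more leaned towards lower values with GLUT1 than towards higher ones. These include Cxcl16 and Il24, which count as dim only through their values on the GLUT1 array. Of 46 that were dim but above the floor on both arrays, 11 (23.9%) were lower by a log2 ratio of at least 0.32 and 1 (2.17%) was higher. Over all 2887 such single-gene probe sets, 12.2% were lower and 12.3% higher by this size. The median log2 ratio was -0.07 for the 46 and 0.01 for the 2887. Besides Cxcl16, and named after their values were seen, the lower ones were Cxcl14 at a log2 ratio of -0.52, Il9r at -0.50, Tnfaip2 at -0.48, Il2rb at -0.44, Cxcr3 at -0.39, Il17b at -0.35, Tnfrsf8 at -0.35, Cxcl12 at -0.34, Il1rl2 at -0.33 and Ccr3 at -0.33. The higher one was Tnfrsf4, the receptor OX40 of activated T cells, at 305 with GLUT1 and 233 with the empty virus, a log2 ratio of 0.39. The local spread over probe sets above the floor was 0.22 to 0.33 for these genes other than Cxcl16. Tnfaip2 and Cxcl12 each had a second probe set above 0. Leukocyte markers in the same range of brightness had a median log2 ratio of -0.26. Of 6 probe sets dim but above the floor on both arrays, 3 were lower by at least 0.32 and 0 were higher. The lower ones were Laptm5 at -0.51, Cd3e at -0.39 and Cd68 at -0.37. The rest were Lyz2 at -0.15, Csf1r at 0.06 and Ncf1 at 0.06. In the other lists used below, no such dim probe set was lower by a log2 ratio of 0.32. Their medians were 0.07 for adaptors, kinases and Toll-like receptors and 0.06 for JAK, STAT and SOCS genes. Below 0 were those of cytokine genes under other names at -0.13, endothelial markers at -0.19 and smooth muscle markers at -0.15. Of 3 for adaptors, kinases and Toll-like receptors, 1 was higher by this size and 0 were lower. Of 6 for JAK, STAT and SOCS genes, 1 was higher and 0 were lower. Of 9 for cytokine genes under other names, 2 for endothelial and 2 for smooth muscle markers, 0 passed this size in either direction. The part of leukocyte markers in the lower dim readings was not tested.

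The counts moved with the way dim values were handled. With an offset of 50 added before the log, 5 of the 46 were lower and 1 higher, beside 9.32% and 9.53% of all. With the floor at the 10th percentile, 17 of 71 were lower and 5 higher, beside 17.9% and 18.9% of all. With the floor at the 40th percentile, 6 members were left. Of these, 1 was lower and 0 were higher, beside 7.55% and 7.3% of all.

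Where 1 array was under the floor, only a bound could be given. Of the 10 such probe sets, 5 were above the floor with GLUT1 only and 5 with the empty virus only. The largest bound was that of Cxcl6, a neutrophil attractant named after its values were seen, at 133 with GLUT1 and 255 with the empty virus, at least 1.46-fold lower with GLUT1.

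Genes read more than once gave a check inside the arrays. Of the 15 genes with several probe sets, 6 had at least 2 above the floor on both arrays. In none of the 6 (Ccl22, Cxcl12, Il17re, Il1rl1, Il6st and Tnfaip2) did all probe sets point the same way.

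**Figure D4:**
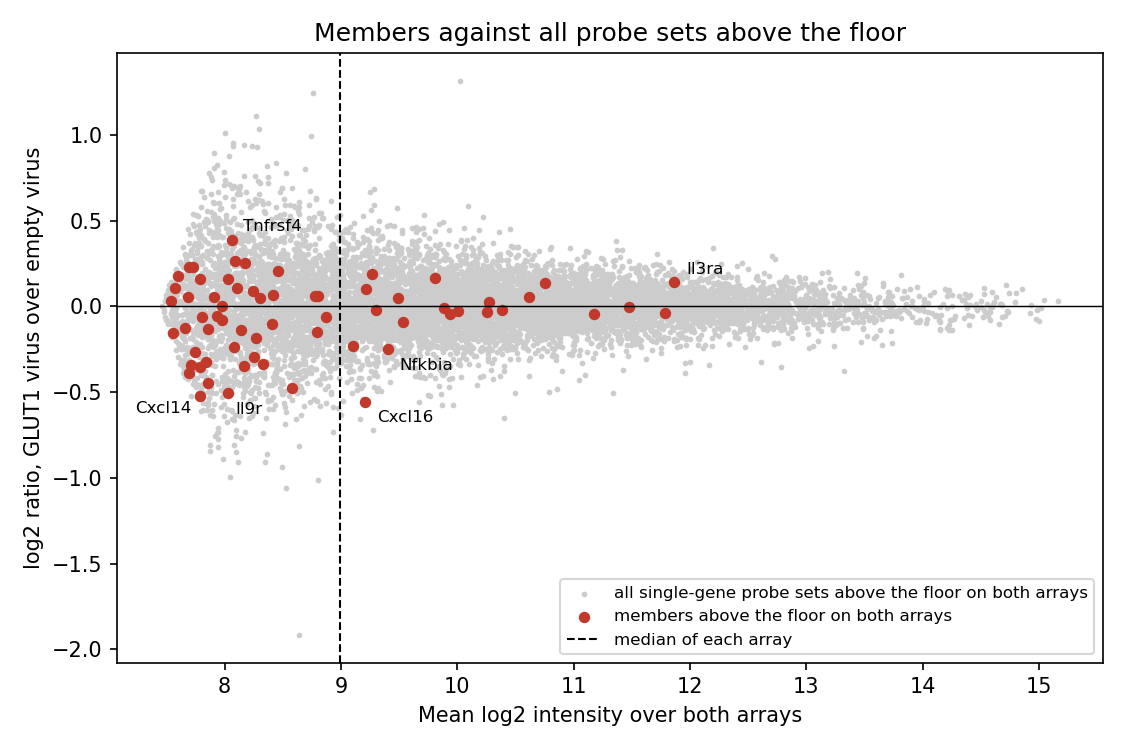
log2 ratio, GLUT1 over empty virus (y axis), against mean log2 intensity over both arrays (x axis) for probe sets above the floor on both arrays, grey for all single-gene probe sets and red for the 65 of the set. The red points narrow around 0 to the right of the dashed median line, where all but Cxcl16 lie between -0.25 and 0.19, and spread with the grey ones to its left.

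The wider signalling pathway, taken from lists of genes outside the set, was read in part. Of 32 adaptors, kinases and Toll-like receptors around TNF, IL-1 and NF-kappa-B, 21 were on the array under a single symbol and 18 were detectable, by 19 probe sets. None of the 19 reached a log2 ratio of 0.32, 12 were above 0 and 7 below, and the median log2 ratio was 0.02. Irak1, a kinase of the IL-1 and Toll-like receptors, had the largest ratio among these 19 detectable probe sets. It was read at 1757 with GLUT1 and 1449 with the empty virus, a log2 ratio of 0.28 and 2.32 times its local spread. Tollip, an inhibitor of the same receptors, was read at 1221 with GLUT1 and 1031 with the empty virus, at 0.25. Below the median, the adaptor Traf2, named after its values were seen, had a larger log2 ratio of 0.63. It was read at 380 with GLUT1 and 246 with the empty virus.

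Of 18 JAK, STAT and SOCS genes and partners, 14 were on the array and 8 were detectable, by 10 probe sets. None reached 0.32, with 7 above and 3 below 0 and a median of 0.05 on the log2 scale. The largest ratios of these 10 both came from Stat3, the factor used by gp130. Its probe sets gave 3280 and 3121 with GLUT1, against 2779 and 3508 with the empty virus, log2 ratios of 0.24 and -0.17. The 2 readings of Stat3 thus pointed in opposite directions. Below the median, a probe set of Ptpn11, named after its values were seen, was read at 298 with GLUT1 and 232 with the empty virus. Its log2 ratio was 0.36, while the detectable probe set of Ptpn11 had -0.04.

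Of 39 cytokine, receptor, adhesion and effector genes that carry other names, 31 were on the array and 8 were detectable, none of which reached a log2 ratio of 0.32, with a median of 0.00. Nos2, the inducible nitric oxide synthase, was read at 675 with GLUT1 and 780 with the empty virus, a log2 ratio of -0.21. Csf1, the macrophage growth factor, was read at 675 with GLUT1 and 590 with the empty virus, a log2 ratio of 0.20.

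Markers of other cells were read beside these genes because many cytokine receptors are leukocyte genes. Smooth muscle markers were detectable for 8 of 9 genes on the array, by 9 probe sets, of which 5 were above 0 and 4 below, with a median log2 ratio of 0.03. They ran from Actg2, the enteric smooth muscle actin, at -0.21 to Smtn at 0.19, and all 11 probe sets of the list summed to 61589 with GLUT1 and 62924 with the empty virus. Myh11, the smooth muscle myosin heavy chain, was not detectable, at 228 with GLUT1 and 227 with the empty virus. Leukocyte markers were detectable for 3 of 14 genes, with log2 ratios of 0.18 for Cd14, 0.14 for Aif1 and -0.41 for C1qb. A second probe set of Aif1 was under the floor, at -3 with GLUT1 and -27 with the empty virus. The pan-leukocyte gene Ptprc was under the floor, at 77 and 37 with GLUT1 and 62 and 74 with the empty virus. Summed over all 16 leukocyte probe sets, with values below 0 counted as 0, the intensity was 5432 with GLUT1 and 5833 with the empty virus. Most of the gap between these sums is C1qb, a complement component of macrophages, read at 1014 with GLUT1 and 1352 with the empty virus. Endothelial markers were detectable for 1 of 8 genes, Egfl7, and summed to 3213 with GLUT1 and 3653 with the empty virus. Pecam1 was under the floor, at 36 with GLUT1 and 26 with the empty virus. In pooled cells, fewer cells that make a transcript and less transcript per cell cannot be told apart.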

How the data were processed

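The authors deposited 1 linear intensity per probe set and array, in whole numbers and partly below 0, for 15923 probe sets on 2 arrays. The quartiles of the deposited intensities are 175, 508 and 1507.5 on both arrays, so the values had been made nearly equal in distribution. How they were summarised, background-corrected and normalized is not given in the sources used. Per the labels, each sample is a pool of RNA from 3 days, and 5 µg of total RNA was labelled with biotin.

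Symbols came from the platform annotation, and all 120 gene IDs in the set were in the current rat gene table under the same symbol. The GLUT1 array was scaled to a median log2 ratio of 0 over probe sets above the median of both arrays, a shift of -0.00125 log2 units. Values were floored at the 25th percentile of both arrays together, and log2 was taken. A size of 2-fold was the main threshold and a log2 ratio of 0.32 a smaller one. The local spread used a fixed number of neighbours in brightness. With 1 array per group no test was possible. Named were all detectable members, those above the median on 1 array, 38 genes chosen by role, of which 35 were found by the rule and 3 are not reported here, and in each list of pathway genes outside the set the 2 largest ratios among detectable probe sets. The genes and lists were chosen with earlier results of these data known. Scaling, ratio and spread steps were tested on simulated data. Alternatives covered scaling, floor, offset, filter, threshold and probe set choice. Python 3.11.15, numpy 2.4.6, pandas 2.3.3 and matplotlib 3.10.9 were used.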

Additional observations from a re-analysis of the deposited data

How the results depend on the processing

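No paired analysis was possible because there is a single array for either virus. Detectable probe sets numbered 6 with the 75th percentile as the limit in place of 19 with the median, and 21 when 1 array or the mean of both had to pass. No member reached 2-fold under any filter, scaling or offset tried, or 1.5-fold among the detectable ones. At a log2 ratio of 0.32, dropping the filter gave 1 higher and 14 lower, in place of 0 and 0, with bounds counted as values. The share over all probe sets without the filter is not given, so no direction is read from these counts. Of all dim probe sets above the floor on both arrays, 12.3% were higher and 12.2% lower by this size. The median log2 ratio of -0.01 became 0.025 with the 75th percentile as the limit, over fewer probe sets. It stayed between -0.02 and 0.00 under the other 6 alternatives. Among these, the value of 0 without the filter says little, since the floor gave 45 of the 120 probe sets a ratio of 0. All 19 detectable probe sets kept their sign without scaling, with the offset and with either floor, and 18 did under quantile normalization. The floor lies below these values and could not move them, and the deposited values were already equalised, so this says little about stability. Dim members past 0.32 were 1 higher and 11 lower with the floor at the 25th percentile and under quantile normalization. With the floor at the 10th percentile they were 5 and 17, and at the 40th 0 and 1. With the offset they were 1 and 5. These alternatives were chosen after seeing the data. Shares over all dim probe sets are given above, and under quantile normalization were 12.2% higher and 12.3% lower. Brightness limits the reading of 101 of the 120 probe sets.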

Other observations

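Probe sets that listed both Il13ra1, a receptor chain of interleukins 4 and 13, and its pseudogene entered no count above. The 2 of them were read at 383 and 164 with GLUT1 and at 420 and 92 with the empty virus. The first had a log2 ratio of -0.13, and the second was under the floor on both arrays.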
